A study of Mus musculus with 15 samples.

Results

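FGF8b and FGF9, 2 fibroblast growth factors that each bring brown preadipocytes to express Ucp1, were compared as one group of 6 RNA libraries with FGF1, a fibroblast growth factor that does not, with 3 libraries. These 9 libraries are taken by their labels from the 15 of the study. The cells were brown preadipocytes, the committed but undifferentiated precursors of heat-producing fat cells, grown out of the stromal-vascular fraction of interscapular brown fat of 129SvEv mice and immortalised with the SV40 large T antigen. FGF1, FGF8b and FGF9 were each given at 5.56 nM for 48 h. The series' design text gives 1 µg/ml heparin, which holds these ligands on their receptors, with all 3, whereas the sample labels name heparin for FGF9 only. Each ligand has 3 libraries numbered 1 to 3. The 3 control libraries have no agent in their labels. Whether the controls also had heparin and stood for 48 h is not given in the sources used here. All groups share the strain, the depot and the immortalising oncogene, and the number of mice, cell lines and separate cultures is not given either. The p-values therefore measure the spread between these libraries, part or all of which may be technical. The other 3 libraries were FGF8b with the glucose transporter inhibitor BAY-876 at 2 µM. In the fit they served for the estimate of the spread only. They also counted in the choice of the transcript line of each gene and in the level filter that set which genes were tested.

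Fibroblast growth factors bind receptor tyrosine kinases on the cell surface together with heparan sulfate chains and switch on the RAS-ERK cascade. The ETS factors Etv1, Etv4 and Etv5 and the inhibitors Dusp6, Sprouty and Spred are the genes usually read as its output, and the inhibitors feed back on the cascade. FGF1 can bind every receptor splice form, whereas FGF8b and FGF9 prefer the c forms. Ucp1 is the mitochondrial protein that lets protons leak across the inner membrane, so that brown fat burns fuel as heat.

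Values are RPKM, read numbers scaled to transcript length and to library size. A change or difference is on the scale of log2(RPKM + 0.5) and is given ± its standard error, so that it understates the change of genes near or under 0.5 RPKM. A gene passed the test where limma gave a Benjamini-Hochberg adjusted p under 0.05 over the 13869 genes tested. The libraries held 27.01 to 42.6 M reads as recovered from the RPKM steps. Across these genes FGF8b and FGF9 libraries correlated with each other at 0.9925 to 0.9962, which lies in the range of libraries within a group (0.9913 to 0.9967), and with FGF1 at 0.9385 to 0.9503 (log2 scale, across genes, which are not independent replicates). Of 19 markers of preadipocytes and progenitors, 18 were tested, and their summed level was 4700.4 to 5226 RPKM in control, 4155 to 4264 in FGF1 and 2354 to 2569 in FGF8b and FGF9. Bone and cartilage markers summed to 38.5 to 40.2 RPKM in control, 297 to 324 in FGF1 and 3299 to 3868 in FGF8b and FGF9, most of it Spp1. Marker sums of the other cells that a brown fat culture could also hold were far lower, and several of them moved with the ligands. Skeletal muscle markers (10 genes, with Myod1, Myf5 and Myog at 0) summed to 5.48 to 6.01 RPKM in control, 8.30 to 9.59 in FGF1 and 4.30 to 6.19 in FGF8b and FGF9. Endothelial markers (10 genes) summed to 14.2 to 14.3 in control, 8.05 to 8.33 in FGF1 and 9.57 to 14.4 in FGF8b and FGF9. These markers did not move together. The VEGF receptor gene Kdr went from 1690 reads in control to 165 in FGF1 and 22 in the 6 libraries. Pecam1 went from 3 reads in control to 4 in FGF1 and 50 in the 6 libraries. Of 4 endothelial markers tested, 1 rose and 2 fell against control with FGF8b and FGF9 pooled, beside 40.9% and 28.5% of all genes. Schwann and neural markers (10 genes) summed to 12.9 to 13.7 in control, 8.29 to 9.27 in FGF1 and 4.52 to 5.68 in FGF8b and FGF9. Mesothelial and epithelial markers (10 genes) went the other way, with 9.38 to 10.4 in control, 11.3 to 13.7 in FGF1 and 20.3 to 24.2 in FGF8b and FGF9. Their part in the results was not tested. In bulk RNA, fewer cells of a type and less RNA per cell cannot be told apart.

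Pooled against FGF1, 9103 of the 13869 genes passed the test, 65.6% of all: 5102 were higher with FGF8b and FGF9 (36.8%) and 4001 were lower (28.8%). The median absolute log2 difference over all 13869 genes, whether they passed or not, was 0.31. Most of the 9103 lay under an absolute difference of 1. With an absolute difference of at least 1, 579 genes were higher (4.17%) and 874 lower (6.3%). For 8268 genes (59.6%) the 6 libraries and the 3 did not overlap. FGF8b alone differed from FGF1 at 8312 genes (59.9%) and FGF9 alone at 8586 (61.9%). Of the genes that passed in both, 4268 were higher with either ligand (30.8%), 3385 were lower with either (24.4%) and 0 went different ways. These comparisons share the 3 FGF1 libraries. By contrast FGF9 differed from FGF8b at 41 genes (0.296%), with 28 higher, 13 lower and 0 that reached an absolute difference of 1. If heparin was given with FGF9 only, as the sample labels read, heparin and ligand cannot be told apart here. This count depends on single libraries: it was 6 without FGF9 replicate 3, 7 without FGF8b replicate 2, 10 without FGF8b replicate 1 or FGF9 replicate 2, 17 without FGF8b replicate 3 and 25 or 26 without an FGF1 library.

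Ucp1 (chromosome 8, 83290352 to 83298452, plus strand, GRCm38) read 25.7, 28.1 and 26.2 RPKM in FGF8b and 34.8, 40.6 and 36.9 in FGF9, against 0.0253, 0.0300 and 0 in FGF1 and 0.0464, 0 and 0.0216 in control. The FGF1 libraries lay in the range of the controls, and all 6 others lay far above both. In reads this was 8644 against 2, a 1788-fold ratio whose exact 95% bounds, 495 and 14770.5, cover counting error only. The log2 difference was 5.95 ± 0.09 (limma, adjusted p = 1.78e-16). The ligands were grouped by whether they bring these cells to express Ucp1, so this test follows from the grouping and is no further support. Among the control, FGF1, FGF8b and FGF9 libraries, Ucp1 reached the 0.5 RPKM of the level filter only where it was high. Ppargc1a, the coactivator that drives mitochondrial and thermogenic genes in brown fat, stood at 0.0646 to 0.173 RPKM (median 0.0863) in the 6 libraries and at 0.120, 0.0285 and 0.130 in FGF1. Both groups lay under the control values of 0.297, 0.268 and 0.389 RPKM, and they did not differ detectably from each other (0.01 ± 0.09, 95% interval -0.18 to 0.21, adjusted p = 0.919). So far under 0.5 RPKM this interval is too narrow for the ratio of levels. In reads it was 55 against 22, a ratio of 1.03 with exact 95% bounds of 0.62 and 1.78 for counting error only. Ppargc1a passed the level filter only through the BAY-876 libraries. Pparg, the nuclear receptor on which fat cell differentiation depends, was higher than in FGF1 by 0.31 ± 0.09 (adjusted p = 0.00889), at 2.12 to 3.16 RPKM (median 2.48) against 1.94, 1.74 and 2.09, while the controls were above both at 3.93, 3.42 and 3.90. Without FGF1 replicate 2 the difference of Pparg was 0.26 and did not pass (adjusted p = 0.0565). Of 12 tested genes of the brown thermogenic list, 6 were higher, Ucp1 among them, and 2 lower, beside 36.8% and 28.8% of all genes. The share called was thus near the 65.6% of all genes. The list's median was 0.16, beside 0.05 over all genes. Acot2, a mitochondrial acyl-CoA thioesterase (1.52 ± 0.07), was the next largest of the 6, and the 2 lower genes were Pdk4 (-1.81 ± 0.07), which restrains pyruvate oxidation, and Zic1 (-0.27 ± 0.10), whose difference failed without FGF1 replicate 1 (adjusted p = 0.0719) or 2 (adjusted p = 0.0592). Fgfr1, the main FGF receptor gene of these cells by level, did not differ detectably: 62.3 to 74.7 RPKM (median 71.1) against 68.1, 68.4 and 65.9 in FGF1 (difference 0.04 ± 0.06, interval -0.09 to 0.18, adjusted p = 0.554).

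**Figure D1:**
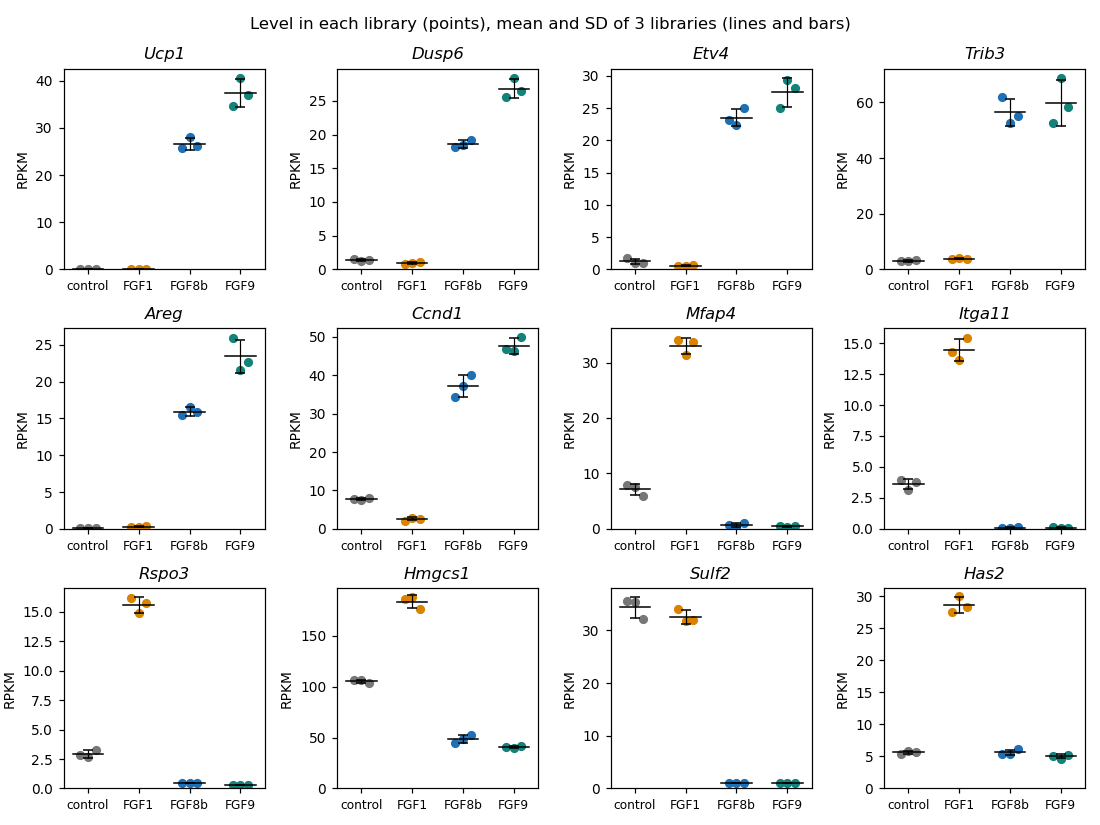
RPKM of 12 genes in every control, FGF1, FGF8b and FGF9 library (points), with the mean and SD of each group of 3. FGF8b and FGF9 lie on the same side of FGF1 in each panel, with Ucp1 between 25.7 and 40.6 RPKM against at most 0.0464 in the other groups. FGF9 lies above FGF8b without overlap in panels such as Dusp6 and Areg. FGF1 sits on the other side of control for genes such as Ccnd1, Mfap4, Itga11, Rspo3 and Hmgcs1.

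The output genes of the ERK cascade stood far higher with FGF8b and FGF9 than with FGF1, and the strongest of them were under the control level in FGF1. Of 25 genes of the FGF-ERK list, 21 were higher and 2 lower, beside 36.8% and 28.8% of all genes, with a median of 1.12. Against control, 5 of the 25 rose and 10 fell under FGF1, beside 19.3% and 15.1% of all genes, while 18 rose and 3 fell under FGF8b and FGF9 pooled, beside 40.9% and 28.5%. Dusp6, the phosphatase that switches ERK off (chromosome 10, 99263231 to 99267489, plus strand), read 18.1, 18.5 and 19.3 RPKM in FGF8b, 25.6, 28.4 and 26.4 in FGF9, 0.758, 0.967 and 1.10 in FGF1 and 1.45, 1.23 and 1.35 in control. Every FGF1 library lay under every control, and all 6 others lay above. It was 3.99 ± 0.08 higher than in FGF1 (adjusted p = 1.03e-15) and changed by -0.36 ± 0.09 with FGF1 against control (adjusted p = 0.00412). Etv4, an ETS factor downstream of ERK (chromosome 11, 101769742 to 101785371, minus strand), read 22.5 to 29.3 RPKM (median 25.0) in the 6 libraries, 0.520, 0.472 and 0.616 in FGF1 and 1.70, 0.962 and 1.01 in control, with the groups in the same order and no overlap. The difference from FGF1 was 4.65 ± 0.11 (adjusted p = 1.16e-14), and the change of FGF1 against control -0.71 ± 0.13 (adjusted p = 4.86e-04). Its relative Etv5 read 29.6 to 36.7 RPKM (median 33.7) against 1.30, 3.08 and 2.04 in FGF1 and 3.83, 2.63 and 3.20 in control. One FGF1 library lay inside the control range, and FGF1 against control still passed the test (-0.54 ± 0.17, adjusted p = 0.0245). The 5 genes of the list that fell under FGF1 and rose under both others were Dusp6, Etv4, Etv5, Ccnd1 and Myc. The fall of Etv5 under FGF1 no longer passed without FGF1 replicate 1 or 3 or control replicate 1 or 3 (adjusted p = 0.055 to 0.127), with a change of -0.29 without FGF1 replicate 1.

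Other feedback genes rose under FGF8b and FGF9 while FGF1 stayed within 0.5 of control. Spry4, a Sprouty inhibitor of the cascade, read 5.81, 6.10 and 6.50 RPKM in FGF8b and 10.9, 10.7 and 10.9 in FGF9, against 0.254, 0.267 and 0.223 in FGF1 and 0.296, 0.367 and 0.384 in control. The difference from FGF1 was 3.53 ± 0.07 (adjusted p = 8.18e-16). All 3 FGF1 libraries of Spry4 lay under the controls; this fall did not pass (-0.18), but did with a pseudocount of 0.1 (-0.36, adjusted p = 0.0121), with the sum of transcripts (-0.34, adjusted p = 0.0185) and without the mean-variance trend (adjusted p = 0.03). The nuclear ERK phosphatase Dusp4 read 11.7 to 16.9 RPKM (median 13.6) in the 6 libraries, with FGF1 (1.09, 0.839 and 0.992) inside the range of control (1.03, 0.833 and 1.11), and it differed from FGF1 by 3.27 ± 0.08 (adjusted p = 1.81e-14). Etv1, Spred1, Spred2, Spred3 and Ereg were the other 5 of the list with an absolute change of at least 1 under FGF8b and FGF9 and a 95% interval under FGF1 within 0.5 of 0. The list's 2 lower genes were the adhesion protein Flrt3 (-0.82 ± 0.07) and Il17rd (-0.22 ± 0.07, adjusted p = 0.0635 without FGF1 replicate 1), a further inhibitor of the cascade that also fell under FGF1 (-1.03 ± 0.08 against control).

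The 10 genes with the largest positive differences were Ucp1, Il33, Areg, Etv4, Car6, Dusp6, Hmga2, Ccnd1, Trib3 and Etv5. Il33, a cytokine released as an alarm signal by stromal cells, read 83.1 to 131 RPKM (median 97.0) in the 6 libraries and 3.23, 3.83 and 3.32 in FGF1, which is above the controls (2.05, 1.53 and 1.32). It rose in all 3 ligands, and the pooled difference from FGF1 was 4.68 ± 0.10 (adjusted p = 3.74e-15). The EGF receptor ligand Areg read 15.4 to 26.0 RPKM (median 19.1) against 0.191, 0.292 and 0.356 in FGF1, or 4911 reads against 28 and a 72.6-fold ratio (exact 95% bounds 50.2 and 109), and 0.0752, 0.111 and 0.0700 in control. Car6, a secreted carbonic anhydrase, read 10.9 to 19.6 RPKM (median 13.2) against 0.300, 0.713 and 0.280, a 34.2-fold ratio (bounds 23.4 and 52.0) from 2231 reads against 27, with FGF1 overlapping control (0.630, 0.609 and 0.330). Hmga2, a chromatin protein of growing mesenchymal cells, read 104 to 138 RPKM (median 120.4) against 7.92, 7.79 and 7.72 in FGF1, which lay just under control (8.54, 8.34 and 9.07) without passing the test (adjusted p = 0.0835). Its difference from FGF1 was 3.87 ± 0.05 (adjusted p = 6.67e-17). Spp1, which encodes osteopontin, had a slightly smaller difference (3.58 ± 0.05) at the highest level of these genes: 3289.6 to 3858 RPKM (median 3416) in the 6 libraries, 285, 309 and 281 in FGF1 and 30.5, 31.5 and 31.8 in control. Here FGF1 acted in the same direction as FGF8b and FGF9. Spp1 is also a bone marker, and it makes up most of the sum of 10 bone and cartilage markers, which was 38.5 to 40.2 in control, 297 to 324 in FGF1 and 3299 to 3868 in FGF8b and FGF9, with Ibsp at 0.

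The 10 largest negative differences were those of Aspn, Mfap4, Lox, Ogn, Mest, Itga11, Wisp2, Egfl6, Fndc1 and Sulf2. The proteoglycan gene Aspn (asporin) read 0.233 to 0.735 RPKM (median 0.489) in the 6 libraries, 39.2, 32.7 and 35.5 in FGF1 and 56.0, 65.7 and 63.2 in control. All groups were apart, with FGF1 between the others, and the pooled difference was -5.23 ± 0.12 (adjusted p = 4.56e-15). Ogn, another small proteoglycan (-4.84 ± 0.08), the imprinted gene Mest (-4.70 ± 0.09) and Egfl6 (-4.41 ± 0.07) had the same order, with FGF1 lowering them and FGF8b and FGF9 lowering them much further. Lox, the enzyme that cross-links collagen, was different: FGF1 raised it to 1000.3, 1008 and 1021 RPKM from 730.5, 730.1 and 801 in control, and the 6 other libraries read 30.3 to 44.2 RPKM (median 32.4) (-4.88 ± 0.09, adjusted p = 4.90e-16). Mfap4, Itga11, Wisp2 and Fndc1 likewise stood above control in FGF1 and under it in the others. For Fndc1 the 6 libraries held 5 reads in all against 588 in FGF1, a ratio of 284 with exact 95% bounds of 121 and 878. Sulf2, an enzyme that trims sulfate from heparan sulfate and so alters how FGFs bind, read 34.1, 31.7 and 32.0 in FGF1 and 35.5, 35.5 and 32.1 in control, and 0.971 to 1.12 RPKM (median 1.09) in the 6 libraries (-4.39 ± 0.06, adjusted p = 1.51e-16). FGF1 left Sulf2 within 0.5 of control (change -0.07 ± 0.07, 95% interval -0.23 to 0.08).

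Against control, 749 genes passed the test under FGF1 in one direction and under both FGF8b and FGF9 in the other, 5.4% of the genes tested. The tests it draws on each called many more: 34.4% of genes in FGF1 against control, 64.4% in FGF8b and 65.7% in FGF9. Of these, 283 (2.04%) rose under FGF8b and FGF9 and fell under FGF1, and 466 (3.36%) fell under FGF8b and FGF9 and rose under FGF1. The 3 comparisons share the control libraries, so a chance deviation of control moves all 3 the same way. In all 749 the 6 libraries lay apart from the 3 FGF1 libraries, beside 59.6% of all genes. In 703 (5.07%) the FGF1 libraries and the 6 also lay apart from the controls on either side. The set was chosen by tests on these same libraries, so this separation largely follows from the choice and is no further support. Most of these changes were small: in 168 genes (1.21%) each of the 3 changes was at least 0.5, 51 of them rising (0.368%) and 117 falling (0.844%) under FGF8b and FGF9, and in 25 (0.18%) at least 1, with 3 rising (0.0216%) and 22 falling (0.159%). Predicted gene models and clones made up 48 of the 749 (0.346% of the genes tested) and are not named. The gene lists hold 82 of the 749, of which 59 kept both calls under each of the 23 other settings and left-out libraries and 21 lost one when 1 library was left out.

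**Figure D2:**
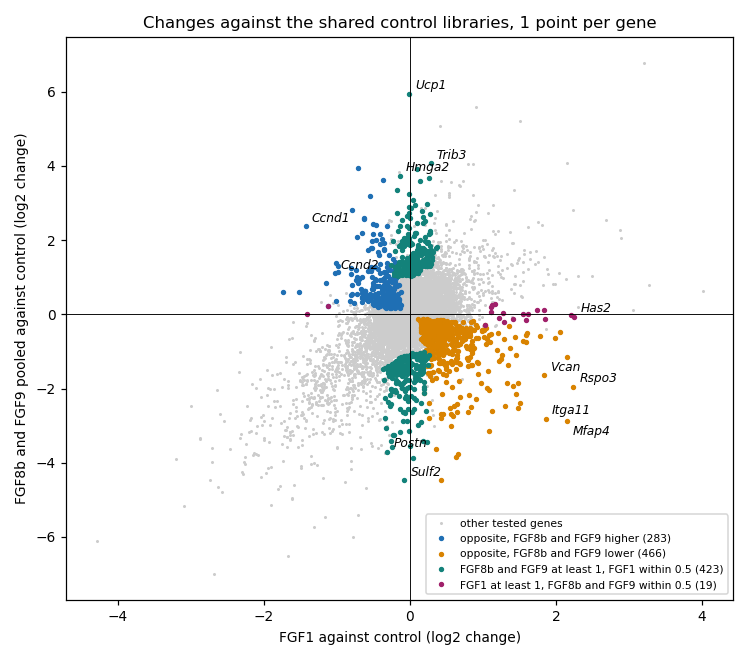
Change of each tested gene against control under FGF1 (x axis) and under FGF8b and FGF9 pooled (y axis), both on the log2(RPKM + 0.5) scale. Colours mark the 749 genes that passed in opposite directions, which lie in the upper left and lower right corners, the genes changed by FGF8b and FGF9 with FGF1 within 0.5 of control, which lie near the vertical axis, and the 19 of the reverse kind near the horizontal axis.

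The genes that rose under FGF8b and FGF9 and fell under FGF1 by the most in all 3 were Ccnd1, Ccnd2, Slc14a1, Fam129a, Lum, Ankrd1, Adh7 and Atf3. Ccnd1 (chromosome 7, 144929931 to 144939925, minus strand), the cyclin through which growth factors move cells out of the first gap phase, read 34.5, 37.2 and 40.2 RPKM in FGF8b, 46.8, 46.3 and 49.9 in FGF9, 2.16, 2.93 and 2.65 in FGF1 and 7.70, 7.56 and 7.97 in control. No groups overlapped, and FGF1 stood lowest. The change against control was -1.43 ± 0.08 under FGF1 (adjusted p = 2.88e-09) and 2.37 ± 0.07 under FGF8b and FGF9 pooled (adjusted p = 9.04e-14). Its relative Ccnd2 (chromosome 6, 127125162 to 127152193, minus strand) moved the same way, with 35.9 to 39.8 RPKM (median 38.1) in the 6 libraries, 8.53, 7.63 and 8.59 in FGF1 and 18.1, 16.8 and 17.1 in control (-1.03 ± 0.06 and 1.10 ± 0.05, adjusted p = 2.69e-09 and 1.74e-11). Atf3, a stress-induced transcription factor, read 8.07 to 12.97 RPKM (median 10.1) against 0.422, 0.430 and 0.262 in FGF1 and 1.27, 0.857 and 0.927 in control (-0.80 ± 0.15 and 2.82 ± 0.13). Its FGF1 libraries held 17 reads and its control libraries 55, so that control stood 2.75-fold above FGF1 (exact 95% bounds 1.57 and 5.06). Lum, the collagen-binding proteoglycan lumican, went from 11.2, 11.3 and 12.9 in control to 6.65, 5.69 and 4.85 in FGF1 and 23.1 to 29.5 RPKM (median 27.5) in the others. The urea transporter Slc14a1 (-1.01 ± 0.11 under FGF1 and 1.38 ± 0.09 under the others), Fam129a (-0.99 ± 0.07 and 1.29 ± 0.06), the nuclear cofactor Ankrd1 (-0.81 ± 0.07 and 1.24 ± 0.06) and the retinol-oxidising alcohol dehydrogenase Adh7 (-0.81 ± 0.10 and 1.08 ± 0.09) changed by like amounts in each direction.

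In the other direction the leading genes were Mfap4, Itga11, Rspo3, C1qtnf3, Il1rn, Mme, Ptgfr and Vcan. Rspo3 (chromosome 10, 29452416 to 29535867, minus strand), a secreted factor that strengthens WNT signals, read 16.2, 14.9 and 15.8 RPKM in FGF1, 2.81, 2.68 and 3.28 in control, 0.442, 0.480 and 0.473 in FGF8b and 0.334, 0.291 and 0.314 in FGF9. FGF1 lay above every control and all 6 others under them (2.24 ± 0.08, adjusted p = 4.17e-11, and -1.95 ± 0.07, adjusted p = 1.63e-12). Mfap4 (chromosome 11, 61485431 to 61488900, plus strand), a protein of elastic fibres, read 34.0, 31.3 and 33.7 in FGF1, 7.85, 7.46 and 6.02 in control and 0.334 to 1.05 RPKM (median 0.472) in the 6 libraries (2.15 ± 0.16 and -2.87 ± 0.14, adjusted p = 7.08e-08 and 4.73e-11). Itga11 (chromosome 9, 62677826 to 62783982, plus strand), the alpha chain of a collagen-binding integrin of fibroblasts, read 14.3, 13.7 and 15.4 in FGF1, 3.91, 3.17 and 3.77 in control and 0.0309 to 0.117 RPKM (median 0.0930) in the others (1.86 ± 0.09 and -2.81 ± 0.08). Versican, the large matrix proteoglycan encoded by Vcan, read 337, 344 and 335 in FGF1, 90.0, 92.1 and 102 in control and 23.9 to 37.7 RPKM (median 29.1) in the others, so that it fell to a lower level than any control library while FGF1 lifted it above them all (1.84 ± 0.07 and -1.65 ± 0.06). Il1rn, the antagonist of interleukin 1, read 79.1, 83.4 and 80.1 in FGF1, 34.8, 26.1 and 25.6 in control and 6.15 to 8.37 RPKM (median 7.74) in the others. The surface peptidase Mme (1.48 ± 0.09 under FGF1 and -2.53 ± 0.08 under the others), Ptgfr, the receptor of prostaglandin F (1.46 ± 0.08 and -2.15 ± 0.07), and the secreted C1qtnf3 (1.51 ± 0.09 and -2.38 ± 0.08) had the same pattern. Mme, Ptgfr and Vcan are also among the few genes that FGF9 lowered further than FGF8b, which held for Ptgfr with each of 12 libraries left out, for Mme with 7 of them and for Vcan with 8.

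A separate set of 446 genes (3.22%) changed by at least 1 under FGF8b and under FGF9, against both control and FGF1, while the 95% interval of FGF1 against control lay within 0.5 of 0. They divide into 235 higher (1.69%) and 211 lower (1.52%), or 164 and 227 with voom on the recovered reads. Within this bound FGF1 was not always still: 84 of the 446 passed the test for a small change under FGF1, and 23 of them are also in the opposite set. Above 0.5 RPKM the bound is strict, but a gene near 0 in FGF1 and control meets it whatever its ratio. The 8 with the largest rise were Ucp1, Trib3, Hmga2, Cd53, Spry4, Dusp4, Ndst3 and Shmt2. Trib3 (chromosome 2, 152337422 to 152344032, minus strand), a pseudokinase made under amino acid and endoplasmic reticulum stress, read 52.5 to 68.9 RPKM (median 56.7) in the 6 libraries, 3.68, 3.90 and 3.66 in FGF1 and 2.96, 2.79 and 3.24 in control. Shmt2, the mitochondrial enzyme that takes one-carbon units from serine, read 120.4 to 180.5 RPKM (median 135), 19.4, 21.7 and 21.1 and 19.1, 16.6 and 16.7 in the same order, with FGF1 just above control and the others far above (2.72 ± 0.10 against FGF1, adjusted p = 2.70e-12). Ndst3, which sulfates heparan sulfate, went to 4.87 to 7.84 RPKM (median 6.39) from 0.407, 0.285 and 0.241 in FGF1 and 0.340, 0.206 and 0.316 in control. The tetraspanin Cd53 went to 8.38 to 10.4 RPKM (median 9.04) from 0.456, 0.473 and 0.248 in FGF1. Cd53 is known as a leukocyte protein, and its rise stands beside macrophage markers that summed to 3.56 to 5.69 RPKM over 9 genes in every group, with C1qa and C1qb at 0. The macrophage marker sum in FGF8b and FGF9 (3.93 to 5.69) overlapped that of control (3.56 to 5.06). Single markers moved within it. Of 4 tested, 1 rose and 1 fell against control with FGF8b and FGF9 pooled, beside 40.9% and 28.5% of all genes. Lyz2 had 100 reads in control, 32 in FGF1 and 23 in the 6 libraries. The part of macrophage RNA in the rise of Cd53 was not tested.

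The 8 with the largest fall were Sulf2, Angptl1, Postn, Dpt, Col12a1, Sfrp2, Gpx3 and Cxcl5. Postn, which encodes the matrix protein periostin, read 148 to 205 RPKM (median 185) in the 6 libraries, 2001, 1851 and 1896 in FGF1 and 2384, 2283 and 2466 in control. FGF1 passed the test for a change of -0.31 ± 0.08, and the others for -3.71 ± 0.07. Under quantile normalization the FGF1 change of Postn was -0.09 and did not pass (adjusted p = 0.459). The matrix protein genes Dpt (dermatopontin) and Col12a1 read 5.67 to 7.62 RPKM (median 6.52) and 0.722 to 1.41 RPKM (median 1.01), against 71.1, 71.3 and 65.2 and 16.8, 17.0 and 17.0 in FGF1. Sfrp2, a secreted antagonist of WNT, read 6.26 to 8.99 RPKM (median 7.14) against 99.1, 101 and 103 in FGF1 and 95.5, 77.1 and 85.9 in control (-3.68 ± 0.09 against FGF1, adjusted p = 2.43e-14). Angptl1 (-3.91 ± 0.08), the secreted glutathione peroxidase Gpx3 (-3.15 ± 0.09) and the neutrophil chemokine Cxcl5 (-3.58 ± 0.08) also stood at or near the control level in FGF1. Pdgfra, the receptor by which adipocyte progenitors are usually identified, belongs to the same set: it read 29.9 to 45.9 RPKM (median 32.8) against 299.8, 297 and 298 in FGF1 and 279, 274 and 276 in control (-3.08 ± 0.06, adjusted p = 2.45e-15).

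The reverse set, genes that FGF1 changed by at least 1 while FGF8b and FGF9 stayed within 0.5 of control, held 19 genes (0.137%), 17 higher (0.123%) and 2 lower (0.0144%). The split was 9 and 10 with voom on the recovered reads, 15 and 10 with the sum of transcripts, and 12 and 5 with a pseudocount of 0.1. Has2, the enzyme that makes hyaluronan, read 27.5, 30.04 and 28.3 RPKM in FGF1 and 5.39, 5.77 and 5.71 in control, and 4.67 to 6.12 RPKM (median 5.32) in the 6 others, which overlap control (2.25 ± 0.09 under FGF1, adjusted p = 7.71e-11). Its antisense neighbour Has2os had the same pattern (1.83 ± 0.11), but the counting is not stated to use strand, so the reads of the pair cannot be told apart. Ets1, a transcription factor of the ETS family, read 29.2, 29.3 and 29.1 in FGF1, 8.12, 7.68 and 7.51 in control and 6.34 to 7.49 RPKM (median 7.20) in the others (1.84 ± 0.06, adjusted p = 1.68e-11). While Etv4 and Etv5 rose with FGF8b and FGF9 and fell with FGF1, Ets1 rose with FGF1 and stood at or just under control in the others. Palmd (2.21 ± 0.10, 456 reads in FGF1 against 30 in control) and B3gat1 (1.75 ± 0.09, 399 reads against 15) completed the 5 largest rises. The 2 lower genes were Uap1l1 (-1.41 ± 0.10) and the monocyte chemokine Ccl2, which read 36.2, 38.6 and 36.7 in FGF1 against 89.3, 73.6 and 83.2 in control and also rose slightly with the others (0.22 ± 0.06, adjusted p = 0.00518). Without control replicate 2 this rise of Ccl2 was 0.15 and did not pass (adjusted p = 0.0555).

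Genes of amino acid supply stood higher than in FGF1 in nearly every case. ATF4 is the factor that cells make when amino acids run short or the endoplasmic reticulum is stressed, and it drives genes for amino acid synthesis, uptake and tRNA charging. Of 27 tested ATF4 targets 25 were higher with FGF8b and FGF9 and 0 lower, with a median difference of 2.14, beside 36.8% higher and 28.8% lower over all genes. The 2 that did not pass were Slc7a11 (-0.10 ± 0.05, adjusted p = 0.0679) and Ddit4 (-0.08 ± 0.08, adjusted p = 0.37), which FGF1 raised as well. Against control all 27 rose with FGF8b and FGF9 pooled, with a median of 2.10, beside 40.9% of all genes, and 13 rose and 2 fell with FGF1, with a median of 0.28, beside 19.3% and 15.1% of all genes. These shares over all genes, with 28.5% that fell with FGF8b and FGF9 pooled, are the background of the counts of every list that follows. The genes that fell with FGF1 and rose with both others were Ddit3 (27.2, 27.5 and 25.4 in FGF1, 44.0, 40.4 and 43.2 in control and 170.2 to 222 RPKM (median 197) in the others), the stress factor also called CHOP, and Sesn2 (-0.35 ± 0.10 and 1.92 ± 0.09), a leucine sensor. The fall of Sesn2 under FGF1 no longer passed without FGF1 replicate 1 or control replicate 1 (adjusted p = 0.0559 to 0.0864). Asns, which makes asparagine, was at 151 to 173 RPKM (median 160.5) against 26.0, 23.1 and 25.5 in FGF1 and 16.8, 16.2 and 18.1 in control. Chac1, which degrades glutathione, was at 21.4 to 31.3 RPKM (median 23.8) against 2.34, 2.20 and 2.15 and 1.25, 1.02 and 0.773. For both genes FGF1 stood between control and the others (2.67 ± 0.06 and 3.19 ± 0.11 against FGF1). The serine synthesis genes Phgdh, Psat1 and Psph and the transporter genes Slc7a5 and Slc3a2 rose with FGF8b and FGF9 while FGF1 stayed within 0.5 of control.

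The C/EBP-ATF response element, the composite sequence to which ATF4 binds with a C/EBP partner, was looked for as TGATGNAAN on both strands of each gene's 300 bases around its start site (250 before, 50 after, RefSeq, GRCm38.p6). It was in a promoter of 8 of the 24 target genes with a promoter sequence. The share was 4.50% of all 27025 genes with such a sequence (3.95% of 32851 promoters) and 2.84% of the tested genes among them. A match describes these letters in this window, not a bound site. The stretches around it in the target genes with the largest differences are shown 5′ to 3′ on the gene's strand, with the element in capitals, to set the sequence beside the values of Trib3, Chac1 and Asns. In Chac1 and Trib3 the element lies in the other orientation.
Trib3 (chr2:152344029-152344057, minus strand): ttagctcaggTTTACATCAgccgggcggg
Chac1 (chr2:119351018-119351086, plus strand): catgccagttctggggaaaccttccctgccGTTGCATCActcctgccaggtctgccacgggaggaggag
Asns (chr6:7693210-7693262, minus strand): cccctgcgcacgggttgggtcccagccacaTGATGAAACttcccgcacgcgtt

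The aminoacyl-tRNA synthetases, which charge tRNAs with amino acids, were higher than in FGF1 for 20 of 20 genes, with a median of 1.36. Against control, 20 rose with FGF8b and FGF9 pooled (median 1.54), and 9 rose and 2 fell with FGF1 (median 0.15). The largest differences were those of Sars (274 to 311 RPKM (median 305) against 75.4, 71.7 and 66.7 in FGF1, 2.06 ± 0.05) and Nars (331 to 406 RPKM (median 368) against 103, 85.1 and 89.7, 1.99 ± 0.08). The 2 that FGF1 lowered were Wars, at 10.9, 11.5 and 11.9 against 16.6, 15.4 and 18.1 in control and 29.7 to 38.4 RPKM (median 34.9) in the others, and Kars (-0.18 ± 0.04 under FGF1 and 0.31 ± 0.04 under the others).

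Genes for making ribosomes were higher for 23 of 23 tested, with a median of 1.01. Against control all 23 rose with FGF8b and FGF9 pooled, and with FGF1 1 rose, 7 fell and 15 did not pass. The 7 that fell with FGF1 and rose with both others were Myc, the factor that drives this group, and Npm1, Nop2, Wdr12, Polr1a, Mybbp1a and Utp20. Myc read 7.32, 7.89 and 9.13 RPKM in FGF1, 11.1, 9.04 and 10.6 in control and 18.0 to 24.3 RPKM (median 21.3) in the 6 libraries. One FGF1 library of Myc lay inside the control range, and FGF1 against control passed narrowly (-0.32 ± 0.11, adjusted p = 0.0316) but did not without FGF1 replicate 1 or 2 or control replicate 1 or 3 (adjusted p = 0.0875 to 0.132). The falls of Nop2, Npm1 and Utp20 under FGF1 also failed when single libraries were left out: Nop2 without FGF1 replicate 1 or 2 or control replicate 1 or 2 (adjusted p = 0.0549 to 0.101), Npm1 without control replicate 2 or 3 (adjusted p = 0.0551 to 0.0572) and Utp20 without FGF1 replicate 1 or 2 or control replicate 1 or 3 (adjusted p = 0.0605 to 0.0787). Wdr12, Polr1a and Mybbp1a kept their place in the opposite set under all 23 other settings and left-out libraries. Rrp9, which helps process ribosomal RNA, had the largest difference of the list (9.31 to 16.3 RPKM (median 10.998) against 2.92, 3.89 and 3.88, 1.55 ± 0.16, adjusted p = 3.08e-07), and Wdr12 the next (1.35 ± 0.07). The E-box CACGTG, a palindrome to which MYC can bind, was in a promoter of 5 of 20 genes of the list. The share was 8.09% of all genes and 11.9% of tested genes.

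Cholesterol synthesis lay on the other side. All 24 tested genes were lower with FGF8b and FGF9 than with FGF1, with a median of -1.10, beside 28.8% lower over all genes. Against control, FGF1 raised 17 and lowered 0 (median 0.43), and FGF8b and FGF9 pooled lowered 19 and raised 1 (median -0.67). In 12 genes along the pathway the changes passed in opposite directions, among them Hmgcs1, Pmvk, Idi1, Fdps, Sqle, Lss, Cyp51, Hsd17b7 and Sc5d, with Acat2 and the sterol carrier gene Stard4. Of the 12, 9 kept both calls under all 23 alternatives. The rise of Pmvk under FGF1 failed without FGF1 replicate 1, 2 or 3 or control replicate 2 or 3 (adjusted p = 0.0582 to 0.133), that of Sc5d without FGF1 replicate 1 or 3 or control replicate 1 (adjusted p = 0.0638 to 0.129), and the fall of Lss under FGF8b or FGF9 without FGF8b replicate 1 or 2 or FGF9 replicate 1 or control replicate 1 or 2 (adjusted p = 0.054 to 0.146). Hmgcs1 (chromosome 13, 119690379 to 119708260, plus strand), an early synthase of the pathway, read 187, 188 and 177 RPKM in FGF1, 107, 106 and 104 in control, 44.5, 49.0 and 52.4 in FGF8b and 40.4, 39.5 and 42.1 in FGF9. FGF1 lay above and all 6 others under the controls (0.80 ± 0.09, adjusted p = 4.45e-06, and -1.24 ± 0.08, adjusted p = 8.80e-10). Sqle, which oxidises squalene, read 58.7, 57.2 and 58.6 in FGF1, 39.0, 38.7 and 42.1 in control and 23.6 to 27.7 RPKM (median 24.8) in the others. Tm7sf2, a sterol reductase, was near control in FGF1 (13.3, 12.7 and 12.9 against 16.1, 13.9 and 12.2) and fell in the others (2.35 to 4.23 RPKM (median 3.19), -1.90 ± 0.14 against FGF1). The sterol regulatory element was searched on both strands as ATCAC, any base and CCAC. It was in a promoter of 0 of 17 genes of the list, beside 0.270% of all genes. This says only that these letters are not in those windows.

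**Figure D3:**
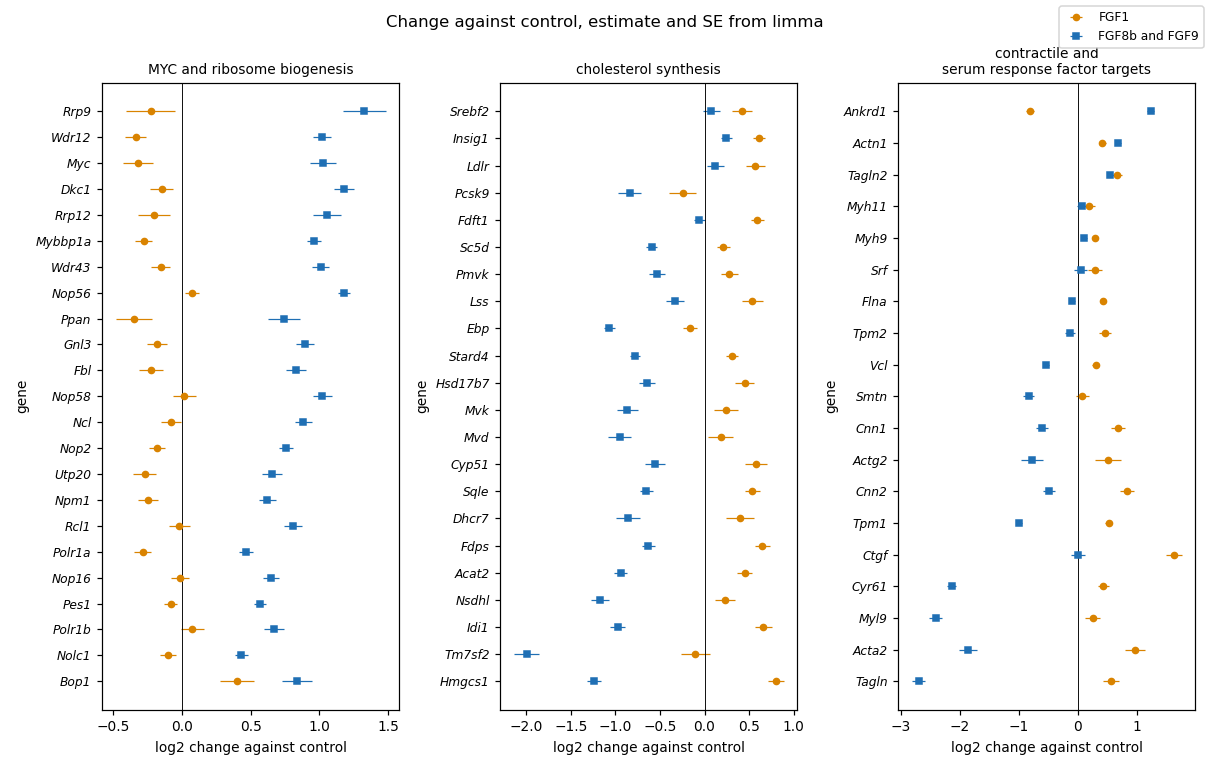
Change against control on the log2(RPKM + 0.5) scale, with its standard error, under FGF1 and under FGF8b and FGF9 pooled, for tested genes of the ribosome, cholesterol and contractile lists, with 2 cholesterol genes not drawn. The cholesterol genes lie mostly above 0 for FGF1 and mostly under 0 for the others, the contractile genes do so in part, and the ribosome genes lie above 0 for FGF8b and FGF9 and, apart from Bop1, near or under 0 for FGF1.

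Contractile genes of the actin skeleton are controlled by serum response factor. Of 19 tested, 14 were lower and 2 higher, with a median of -0.90, beside 28.8% and 36.8% of all genes. Against control FGF1 raised 13 and lowered 1, beside 19.3% and 15.1% of all genes, and the others pooled lowered 10 and raised 4, beside 28.5% and 40.9%. Those that passed in opposite directions were Acta2, Tagln, Cnn1, Cnn2, Tpm1, Vcl and Cyr61, with Ankrd1 in the reverse sense. Acta2, smooth muscle actin, read 76.3, 83.8 and 84.1 RPKM in FGF1, 43.8, 40.5 and 39.2 in control and 10.1 to 12.0 RPKM (median 10.9) in the 6 others (0.97 ± 0.17 and -1.86 ± 0.15). Tagln, an actin-bundling protein of smooth muscle, read 88.1, 85.8 and 90.7 in FGF1, 65.8, 58.1 and 55.7 in control and 7.97 to 9.64 RPKM (median 8.77) in the others (0.56 ± 0.13 and -2.70 ± 0.11). The myosin light chain gene Myl9 was near control in FGF1 (31.6, 32.3 and 29.8 against 29.9, 26.5 and 22.5) and fell in the others (3.81 to 5.12 RPKM (median 4.67)). Markers of mural cells, the contractile cells around vessels, summed to 5.18 to 7.77 RPKM in control, 13.6 to 15.9 in FGF1 and 10.2 to 13.5 in FGF8b and FGF9 over 10 genes, Cnn1 among them, with 0 of the 10 at 0 in all libraries. Their part in the contractile result was not tested. The CArG box, to which serum response factor binds, was in a promoter of 4 of 16 genes of the list, beside 1.81% of all genes. The promoters of Myl9, Cnn2 and Vcl hold it as shown, in capitals, 5′ to 3′.
Myl9 (chr2:156775273-156775342, plus strand): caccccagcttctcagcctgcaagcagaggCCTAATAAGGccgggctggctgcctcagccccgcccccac
Cnn2 (chr10:79988514-79988583, plus strand): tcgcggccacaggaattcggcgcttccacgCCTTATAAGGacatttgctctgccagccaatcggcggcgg
Vcl (chr14:20929148-20929210, plus strand): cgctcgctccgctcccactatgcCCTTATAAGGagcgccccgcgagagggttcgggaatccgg

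Of 30 extracellular matrix genes, 23 were lower and 5 higher, with a median of -1.66. Against control FGF1 raised 11 and lowered 13, and the others pooled raised 6 and lowered 22. Col3a1, Col5a1, Col5a2, Col11a1, Lox, Loxl1 and Loxl2, which are fibrillar collagens and the enzymes that cross-link them, rose with FGF1 and fell with both others. The type III collagen gene Col3a1 read 1877, 1799.6 and 1871 RPKM in FGF1, 1167, 1066 and 1342 in control and 481 to 642 RPKM (median 557) in the 6 others. Loxl2 read 51.1, 52.9 and 50.2 in FGF1, 40.4, 37.3 and 38.6 in control and 19.1 to 24.6 RPKM (median 20.6) in the others. In the reverse sense were the proteoglycans decorin and lumican, with Dcn at 289, 271 and 259.9 in FGF1, 469, 467 and 487 in control and 793 to 902 RPKM (median 812) in the others (1.59 ± 0.07 against FGF1, adjusted p = 6.72e-12). Of 22 matrix proteases and inhibitors, 14 were lower and 4 higher (median -0.78), with Adam12 (-3.14 ± 0.09) and the aggrecan protease Adamts5 (-2.73 ± 0.07) the lowest and Adam19 (1.18 ± 0.08) and Mmp11 (1.07 ± 0.08) the highest. Of the 18 tested preadipocyte markers, 11 were lower and 5 higher. Besides Pdgfra, Col1a1 (-2.39 ± 0.17) was the lowest of them against FGF1, and Pi16, a marker of early fascial progenitors, was 2.65 ± 0.11 higher. Dpp4, a marker of the same progenitors, went the other way (-0.38 ± 0.09), with 21 reads in the 6 libraries, 42 in FGF1 and 335 in control.

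Interferon response genes had a different form: FGF1 and the other ligands acted the same way, the latter more strongly. Of 28 genes 26 were lower with FGF8b and FGF9 than with FGF1 and 0 higher, with a median of -1.16. Against control 27 fell with FGF1 (median -1.13) and all 28 with the others pooled (median -2.43), so the list has 0 genes in the opposite set. Mx1, an antiviral GTPase, read 1.18 to 1.83 RPKM (median 1.63) in the 6 libraries, 9.76, 7.82 and 9.61 in FGF1 and 31.4, 27.3 and 35.6 in control, and had the largest difference (-2.22 ± 0.14, adjusted p = 1.48e-09). Ifit3 read 44.8 to 56.2 RPKM (median 50.5), 268, 208 and 235 and 942, 849 and 934 in that order. Its near-identical neighbour Ifit3b can share its reads, so its level is uncertain. Stat2, part of the factor that interferon switches on, read 20.04 to 25.2 RPKM (median 21.5) against 60.7, 56.5 and 63.5 in FGF1 and 97.9, 87.2 and 97.2 in control. The interferon-stimulated response element was searched on both strands as GAAA, any 2 bases and GAAA. It was in a promoter of 12 of 23 genes of the list, beside 3.99% of all genes. It is shown in capitals for the genes of the list that hold it and differ most, Ifit3, Gbp2 (-1.81 ± 0.15) and Ifit1 (-1.71 ± 0.16), 5′ to 3′, and lies in the other orientation in each. Ifit3 and Ifit1 each hold it at 2 places of the promoter, and the stretch of Ifit3 shows 1 of them. Across all the promoters of the lists searched, 0 had matches of different motifs that share a base.
Ifit3 (chr19:34583343-34583412, plus strand): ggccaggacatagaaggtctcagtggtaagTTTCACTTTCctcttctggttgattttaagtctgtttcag
Gbp2 (chr3:142620574-142620643, plus strand): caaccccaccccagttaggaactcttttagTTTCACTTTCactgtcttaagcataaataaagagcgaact
Ifit1 (chr19:34640755-34640824, plus strand): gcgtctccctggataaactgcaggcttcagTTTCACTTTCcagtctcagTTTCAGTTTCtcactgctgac

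**Figure D4:**
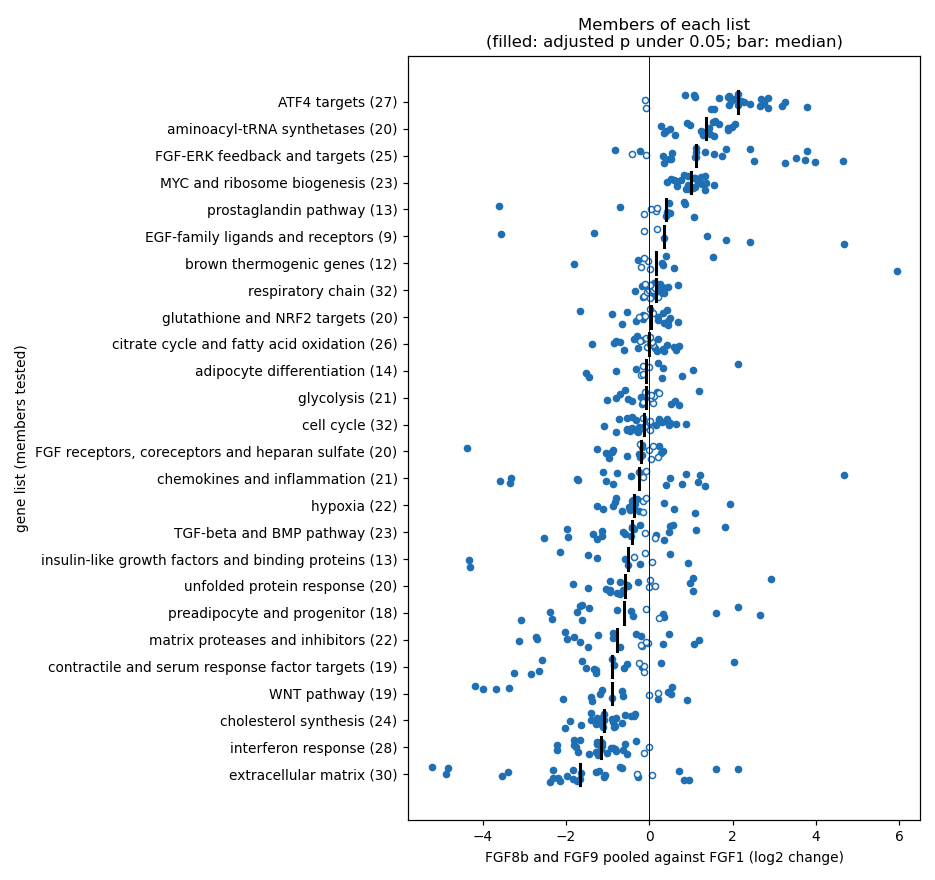
Log2(RPKM + 0.5) difference of FGF8b and FGF9 pooled from FGF1 for every tested member of each gene list (points), ordered by list, with the median of each list marked. The ATF4 targets, aminoacyl-tRNA synthetases, ribosome and FGF-ERK lists lie to the right of 0, the matrix, cholesterol, interferon and contractile lists to the left, and the metabolic lists around 0.

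Genes for signals between cells also separated the ligands. In the WNT list 12 of 19 were lower and 5 higher (median -0.91). Wnt4, Wnt10b, Sfrp1 and Rspo3 rose with FGF1 and fell with the others. The rise of Wnt4 under FGF1 failed without FGF1 replicate 1 or 2 or control replicate 2 or 3 (adjusted p = 0.0727 to 0.152) and that of Wnt10b without FGF1 replicate 3 or control replicate 1 or 2 (adjusted p = 0.0813 to 0.111). Sfrp1, a secreted antagonist of WNT, read 110.2, 110.2 and 106 RPKM in FGF1, 89.0, 77.9 and 89.3 in control and 5.58 to 7.15 RPKM (median 6.50) in the others (-3.99 ± 0.08 against FGF1, adjusted p = 1.88e-15). So agonists and antagonists of the pathway were lower together, while Wnt5a was 0.92 ± 0.09 higher. In the TGF-beta and BMP list 14 of 23 were lower and 7 higher (median -0.41). Tgfb3 was at 35.9, 36.0 and 34.0 in FGF1, 8.93, 8.30 and 7.21 in control and 5.16 to 6.46 RPKM (median 5.42) in the others. The ligands Bmp4 and Bmp2 went opposite ways. Bmp4 was near 1.87, 1.54 and 1.81 in FGF1 and 1.95, 1.43 and 1.86 in control and at 0.0307 to 0.0982 RPKM (median 0.0776) in the others. Bmp2 had 0 reads in FGF1 and control and 334 in FGF8b and FGF9, at least 46.1-fold higher than FGF1 with a floor of 3 reads over the group. The BMP antagonist Grem1 read 55.7 to 88.5 RPKM (median 65.6) against 19.0, 19.9 and 18.1 in FGF1 and 7.92, 7.96 and 9.32 in control.

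The 4 lists that follow are read against 65.6% of all genes called, 36.8% higher and 28.8% lower. Of 9 tested EGF-family genes 5 were higher and 2 lower (median 0.34). Areg, Ereg (2.42 ± 0.08) and Btc (1.38 ± 0.08), all ligands of the EGF receptor, were among the higher. The lower genes were the receptor gene Egfr (-1.33 ± 0.07) and the neuregulin gene Nrg1, which read 12.5, 12.6 and 12.6 RPKM in FGF1, 8.43, 8.48 and 8.19 in control and 0.495 to 0.657 RPKM (median 0.633) in the others. Among 13 genes of insulin-like growth factors 8 were lower and 2 higher (median -0.52), led by the binding protein gene Igfbp3 (1.09 to 1.93 RPKM (median 1.81) against 42.7, 40.5 and 40.3 in FGF1 and 268, 247 and 285 in control) and the ligand gene Igf1 (1.58 to 3.04 RPKM (median 1.97) against 53.3, 48.0 and 49.3 and 119.6, 118 and 103). The decoy receptor gene Igf2r was 0.94 ± 0.04 higher. Of 20 tested genes for FGF receptors, coreceptors and heparan sulfate, 12 were lower and 3 higher (median -0.19). Frs2, the adaptor of FGF receptors, the proteoglycan gene Sdc4 and Sulf1, the relative of Sulf2, rose with FGF1 and fell with the others, with Sulf1 at 13.8, 13.6 and 13.1 in FGF1, 11.04, 10.3 and 11.4 in control and 4.78 to 5.89 RPKM (median 5.38) in the others. The rise of Frs2 under FGF1 failed without FGF1 replicate 1 or 3 or control replicate 1 or 2 (adjusted p = 0.058 to 0.103). In the prostaglandin list 7 of 13 were higher and 2 lower (median 0.40), so that the share called was near that of all genes: Ptgs1, a cyclooxygenase, by 1.08 ± 0.05 and the prostacyclin receptor gene Ptgir by 0.85 ± 0.06, against Ptger4 (-0.69 ± 0.09) and Ptgfr. Ptgs2, the inducible cyclooxygenase, rose with all 3 ligands: 7.55, 7.06 and 8.21 in FGF1, 8.97, 8.14 and 7.98 in FGF8b and 14.1, 11.01 and 12.0 in FGF9, from 2.81, 3.02 and 3.35 in control. Its FGF8b libraries overlapped FGF1 and its FGF9 libraries did not, and the pooled difference of 0.40 ± 0.08 passed the test (adjusted p = 3.81e-04).

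The folding machinery of the endoplasmic reticulum went with FGF1. Of 20 unfolded protein response genes 13 were lower with FGF8b and FGF9 and 4 higher (median -0.59). Against control, FGF1 raised 16 and lowered 0, and the others pooled raised 7 and lowered 7. Calr, a calcium-binding chaperone, read 758, 767 and 773 RPKM in FGF1, 490.1, 468 and 500.2 in control and 259.7 to 292 RPKM (median 274) in the others, and Pdia3, Pdia6 and Sdf2l1 shared this opposite pattern. The 2 members with the largest positive difference were Ppp1r15a (2.92 ± 0.09), which restores translation after stress, and Atf6 (1.06 ± 0.08), a membrane-bound sensor. Of 21 chemokine and inflammation genes, 11 were lower and 8 higher (median -0.25), with Ccl9 (-3.35 ± 0.15) and Cxcl5 lowest and Il33 and Ccl2 (1.35 ± 0.06) highest.

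The lists of energy metabolism had medians near 0. Of 21 glycolysis genes 5 were higher and 8 lower (median -0.08), and against control 16 rose with FGF1 and 15 with the others pooled. The glucose transporter gene Slc2a1 was at 35.1 to 54.4 RPKM (median 40.9) in the 6 libraries, 25.2, 27.3 and 24.9 in FGF1 and 15.6, 14.02 and 14.2 in control, so both groups stood above control and the 6 above FGF1 (0.71 ± 0.08, adjusted p = 2.10e-06). Slc16a1, a carrier of lactate and pyruvate, was 1.19 ± 0.06 higher and Pfkfb3, which speeds glycolysis, -1.01 ± 0.09. In the respiratory chain list 18 of 32 were higher and 3 lower with a median of 0.15, led by cytochrome c (Cycs, 0.68 ± 0.07) and Cox5a (0.45 ± 0.06). In the list of the citrate cycle and fatty acid oxidation 9 of 26 were higher and 9 lower. Within it Cpt1a, Cpt2, Acadm and Acadvl, enzymes of fatty acid oxidation, rose with FGF1 and fell with the others, with Cpt1a, which admits fatty acids to mitochondria, at 29.96, 30.9 and 29.3 in FGF1, 20.1, 18.0 and 19.4 in control and 10.004 to 13.3 RPKM (median 11.2) in the others. The rises of Acadm and Acadvl under FGF1 were small and failed without single libraries, Acadm without FGF1 replicate 1, 2 or 3 or control replicate 1 or 2 (adjusted p = 0.0537 to 0.117) and Acadvl without FGF1 replicate 1, 2 or 3 or FGF8b replicate 1, 2 or 3 or FGF9 replicate 1 or 3 or control replicate 2 or 3 (adjusted p = 0.052 to 0.181). In the hypoxia list 15 of 22 were lower and 4 higher (median -0.38), with P4ha2 (-1.26 ± 0.07) and Adm (-1.10 ± 0.09) lowest and Ero1l (1.94 ± 0.07) and Vegfa (1.10 ± 0.09) highest. The list of glutathione and NRF2 targets had 9 of 20 higher and 7 lower (median 0.05), from Gclc (0.69 ± 0.05), which begins glutathione synthesis, to Gstm1 (-1.67 ± 0.06).

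Of 32 tested genes of the cell cycle list 10 were higher and 14 lower, with a median of -0.14, beside 36.8% and 28.8% of all genes. Against control 27 rose and 0 fell with FGF1, and 19 rose and 2 fell with the others pooled. Mki67, a marker of proliferating cells, read 72.8, 75.4 and 71.4 RPKM in FGF1, 47.1, 47.6 and 51.0 in control and 39.0 to 46.0 RPKM (median 41.7) in the others, and Cdc20, an activator of mitotic exit, shared this opposite pattern (0.39 ± 0.10 and -0.71 ± 0.08). The fall of Mki67 under FGF8b failed without FGF8b replicate 1 or 2 or control replicate 2 or 3 (adjusted p = 0.0514 to 0.197). The 2 members with the largest positive difference were the replication licensing genes Cdt1 (0.89 ± 0.06) and Mcm2 (0.63 ± 0.06).

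Of 14 tested regulators of fat cell differentiation 6 were higher and 4 lower (median -0.08), which is near the shares of 36.8% and 28.8% over all genes. Klf15, a factor that acts late in differentiation, read 0.354, 0.290 and 0.296 RPKM in FGF1, 2.16, 1.63 and 1.74 in control and 2.47 to 3.68 RPKM (median 3.09) in the others, so FGF1 lowered it and the others raised it (-1.52 ± 0.14 and 0.61 ± 0.12, adjusted p = 3.65e-07 and 2.39e-04). Cebpa, a partner of Pparg, did the reverse, at 5.58, 6.87 and 4.66 in FGF1, 2.36, 2.72 and 2.75 in control and 1.46 to 1.98 RPKM (median 1.80) in the others (0.98 ± 0.13 and -0.46 ± 0.11, adjusted p = 1.92e-05 and 0.00179). With voom on the recovered reads the fall of Cebpa under FGF8b and under FGF9 did not pass (adjusted p = 0.0529 and 0.067). The lipoprotein lipase gene Lpl was lower than in FGF1 (-1.52 ± 0.08) and Dgat2, which makes triglyceride, higher (1.05 ± 0.09).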

How the data were processed

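The RNA libraries were made from total RNA with the TruSeq RNA v2 kit, per the labels' protocols. The submitters' processing notes name CASAVA and bcl2fastq; which aligner, counting program, build and annotation were used is not given in the sources used here. The authors deposited 1 table of RPKM values for 168326 transcript lines and 15 libraries, written with decimal commas. Of its lines, 145154 carry a gene symbol and 23172 do not and were left out; the line with the highest mean over all 15 libraries stood for each of 29072 genes. RPKM hides depth, so it was recovered from the value that 1 read adds: 94.1% to 95.1% of the low values of 46002 transcripts of GENCODE vM21 were whole multiples of it within 0.05, where chance gives 10%. Depth was 27.01 to 42.6 M reads, and reads were recovered for all 13869 tested genes within 0.02 of a whole number.

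Genes reaching 0.5 RPKM in 3 or more libraries were fitted as log2(RPKM + 0.5) with limma 3.58.1 in R 4.3.3 (moderated variances that follow a trend on the mean), on all 15 libraries in 5 groups of 3 (10 residual degrees of freedom). The pooled comparison is the mean of the FGF8b and FGF9 group means minus the FGF1 mean. P-values were adjusted after Benjamini and Hochberg over all genes tested, with a threshold of 0.05. Tables and figures used Python 3.11.15, pandas 2.3.3, scipy 1.17.1 and matplotlib 3.10.9. The fit was tested on simulated data. Exact intervals of read ratios cover counting error only. Gene positions are those of GENCODE vM21 (GRCm38) and promoter sequences those of RefSeq (GRCm38.p6), matched by symbol.

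Named genes are 8 followed throughout; the 10 largest differences per direction in the pooled comparison with no overlap, both ligands passing and a mean of at least 1 RPKM; the 8 per direction leading the opposite set and the shared set; the 5 per direction that FGF1 alone changed; up to 2 per direction of each of 33 gene lists; and up to 3 promoters per motif. Other members named make up a counted subset in full or were chosen after their values were seen. The members and lists were chosen with earlier results of these data known, and the E-box was added after the table was read. Alternatives changed the pseudocount, filter, scaling, transcript choice, trend, replicate block, BAY-876 libraries and tool, and left out each library in turn. Single values of 2 genes of the cholesterol list are not reported here.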

Additional observations from a re-analysis of the deposited data

Results flagged for a closer look

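For 13 of the named genes the 2 ligands that were pooled differed from each other, as tested by FGF9 against FGF8b with limma. Among genes higher with FGF9, Spry4 had the largest difference at 0.77 ± 0.08 (adjusted p = 5.00e-04). The EGF receptor ligand Areg followed at 0.54 ± 0.09 (adjusted p = 0.0227), with Ptgs2 at 0.53 ± 0.09 (adjusted p = 0.0227) and Dusp6 at 0.51 ± 0.09 (adjusted p = 0.0227). Next were Bmp2 at 0.47 ± 0.08 (adjusted p = 0.0227), the BMP antagonist Grem1 at 0.44 ± 0.08 (adjusted p = 0.0348) and Igf2r at 0.27 ± 0.05 (adjusted p = 0.0307). Among the control, FGF1, FGF8b and FGF9 libraries, Bmp2 reached the 0.5 RPKM of the level filter only in FGF9, where it was higher.

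Genes lower with FGF9 were Ptgfr at -0.75 ± 0.08 (adjusted p = 0.00101), Mme at -0.54 ± 0.09 (adjusted p = 0.0191), Ogn at -0.50 ± 0.09 (adjusted p = 0.0327), Adamts5 at -0.44 ± 0.08 (adjusted p = 0.0327), Vcan at -0.42 ± 0.07 (adjusted p = 0.0191) and Pdgfra at -0.37 ± 0.07 (adjusted p = 0.047). In each of the 13 the 3 FGF9 libraries lay on 1 side of the 3 FGF8b libraries. The 13 were chosen by a test on these same libraries. This separation therefore largely follows from the choice and is no further support, and its share over all genes was not counted. In all 13 the change from control was larger with FGF9 than with FGF8b and had the same direction. That pattern did not hold for all 41 genes called. Fbn2 changed from control by -3.31 with FGF8b and by -2.84 with FGF9. Egr1 changed by -0.45 with FGF8b and by 0.19 with FGF9. With each of 12 libraries left out in turn Spry4 and Ptgfr passed every time, and the other 11 passed in 1 (Adamts5, Pdgfra) to 8 (Vcan) of the 12.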

How the results depend on the processing

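The pooled comparison called 8664 (filter at 1 RPKM) to 9839 genes (sum of transcripts) under the other settings, and 8327 to 9231 with 1 library left out. With trimmed-mean scaling 51.2% of 9058 calls were higher, beside 56.0% of the 9103, and FGF1 against control had 2256 genes higher and 2394 lower, beside 2677 and 2095. The set of FGF8b and FGF9 alone had 205 higher and 220 lower with it, beside 235 and 211. Treating the 6 libraries as 1 group gave 9116. Leaving out 1 library gave 7539 to 8512 calls for FGF8b against FGF1, 7858 to 8720 for FGF9 against FGF1, 3911 to 4993 for FGF1 against control, 567 to 781 genes in the opposite set, 390 to 458 in the set of FGF8b and FGF9 alone and 16 to 22 in that of FGF1 alone. FGF9 against FGF8b was the comparison whose count moved by over 1.5 times: 27 genes with a pseudocount of 0.1, 63 with voom and 6 to 44 with 1 library left out; the cause was not tested. Of the 749 genes in the opposite set, 650 were in it with trimmed-mean scaling and 688 with voom, of the 446 of FGF8b and FGF9 alone 318 were in it with voom and 321 with a pseudocount of 0.1, and of the 19 of FGF1 alone 9 were in it with voom. Of 10605 values of named genes under other settings, 0 reversed a call, 85 lost one and 29 gained one.

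Deviations from the group means of same-numbered libraries correlated at -0.443 to 0.534, above 0.1 in 11 of 30 pairs of libraries. Libraries of different number were not compared, so these values cannot decide whether the numbers pair the samples. With the replicate block the pooled comparison called 9179 genes, FGF8b against FGF1 8403, FGF9 against FGF1 8677 and FGF9 against FGF8b 30, and the opposite set held 769.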

Other observations

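H19, an imprinted long noncoding RNA of growing tissue, was chosen here after its values were seen. It read 204, 189 and 214 RPKM in control, 312, 300.3 and 325 in FGF1, 81.0, 92.4 and 114 in FGF8b and 49.8, 59.4 and 55.1 in FGF9. FGF1 lay above every control, all 6 others lay below, and FGF9 lay under FGF8b by -0.79 on the log2(RPKM + 0.5) scale (limma, adjusted p = 0.0138). The immediate early gene Egr1 (0.64, adjusted p = 0.00116) and the plasminogen activator gene Plau (0.68, adjusted p = 0.0011), likewise chosen, were higher with FGF9 than with FGF8b.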
